A study of Mus musculus with 15 samples.

Results

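The 9 transcription factor genes that direct the layering of the epidermis were followed across the epidermis and tongue of newborn mice: Trp63, Tfap2a, Gata3, Ovol1, Klf4, Grhl1, Grhl3, Cebpa and Cebpb. They were taken by gene symbol, and their read counts by the Ensembl ID paired with that symbol, and all 9 were found among 23420 mouse genes. The RNA-seq libraries came from mice at postnatal day 1 (label P1), either knockout (KO), with the 7 genes from Tmprss11a to Tmprss11g marked -/- in the label, or wildtype (WT); the strain label names the Tmprss11 cluster for both. The targeted genes encode the HAT/DESC family of membrane-anchored serine proteases. There were 4 libraries of KO epidermis, 3 of WT epidermis, 4 of KO tongue and 4 of WT tongue. The labels carry an A-number for each library; read as an animal, these give 9 animals, of which 6 supplied both tissues, among them all 4 KO animals. Beyond these numbers the labels do not say that the samples were separate animals, so each p-value rests on the spread of the samples given, which may be technical. The A-numbers fall into 3 ranges, here A32x, A34x and A38x, and the labels do not say what a range stands for. The epidermis was peeled from the dermis, whereas the tongue was taken whole.

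Stratified epithelia renew from a basal layer whose cells stop dividing, move outward and build a barrier. The p63 protein encoded by Trp63 sets up and maintains the basal state, and AP-2alpha (Tfap2a) acts with it on keratinocyte genes. Ovol1, Gata3 and the C/EBP proteins take part in the exit from proliferation and in differentiation, and Klf4 and the Grainyhead-like factors Grhl1 and Grhl3 drive genes of the upper layers and of the barrier.

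RefSeq start sites on GRCm38.p6 were matched for 7 of the 9 genes, all but Trp63 and Ovol1. The 250 bases upstream of the start are printed for 4 genes, because Gata3 showed the widest difference between the tissues, Grhl3 the largest difference between genotypes in epidermis, and Klf4 and Grhl1 the highest levels per length. They lie at chr2:9878601-9878850 on the minus strand for Gata3, chr4:55532476-55532725 on the minus strand for Klf4, chr12:24572037-24572286 on the plus strand for Grhl1 (the first of its 2 listed starts) and chr4:135573633-135573882 on the minus strand for Grhl3. Each runs 5′ to 3′ and ends just before the start, and capitals mark matches to the AP-2 motif GCCNNNGGC, which reads the same on both strands.
Gata3: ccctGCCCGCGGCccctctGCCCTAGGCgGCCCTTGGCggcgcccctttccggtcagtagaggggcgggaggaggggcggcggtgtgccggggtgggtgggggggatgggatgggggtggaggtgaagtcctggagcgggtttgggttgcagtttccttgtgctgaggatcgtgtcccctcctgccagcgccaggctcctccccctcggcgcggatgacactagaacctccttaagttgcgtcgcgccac
Klf4: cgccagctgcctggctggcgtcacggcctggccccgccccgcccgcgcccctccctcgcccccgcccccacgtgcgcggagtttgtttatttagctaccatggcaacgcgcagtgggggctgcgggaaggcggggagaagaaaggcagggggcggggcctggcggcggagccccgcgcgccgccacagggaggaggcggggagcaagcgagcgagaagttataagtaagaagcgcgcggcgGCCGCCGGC
Grhl1: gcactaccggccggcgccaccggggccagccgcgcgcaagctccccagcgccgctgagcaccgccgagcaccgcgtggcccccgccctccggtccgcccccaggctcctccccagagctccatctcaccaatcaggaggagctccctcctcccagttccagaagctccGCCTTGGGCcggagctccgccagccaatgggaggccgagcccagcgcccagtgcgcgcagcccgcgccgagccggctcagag
Grhl3: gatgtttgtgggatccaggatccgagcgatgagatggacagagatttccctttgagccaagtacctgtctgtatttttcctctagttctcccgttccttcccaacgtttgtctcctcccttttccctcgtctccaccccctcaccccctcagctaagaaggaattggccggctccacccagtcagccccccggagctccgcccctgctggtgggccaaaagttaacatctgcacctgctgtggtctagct
Gata3 had 3 AP-2 matches, beginning 246, 231 and 221 bases before the start, Klf4 had 1 match beginning 9 bases before it, and Grhl1 had 1 beginning 82 bases before it. No AP-2 match stood in the windows of Grhl3, Cebpa, Cebpb or Tfap2a, nor in that of the other listed start of Grhl1. The AP-2 letters occur in 13.7% of 32851 mouse promoters read over the same length. Both strands were also searched for AACCGGTT (Grainyhead-like, in 0.116% of all promoters), AGATAA (for the zinc finger family of Gata3, 9.99%), TTGCGCAA (C/EBP, 0.164%) and CCACACCC (Krüppel-like, 3.2%), and none of these letters stood in any of the windows of the 7 matched genes. A match is a description of the letters only.

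Counted reads over genes numbered 10117819 to 17819195 per library. The library of WT epidermis 1 stood apart: mitochondrial ribosomal RNAs took 44.6% of its reads, against 20.1% to 23.8% in the other epidermis libraries, and its mean correlation of gene levels with the other epidermis libraries was 0.857, where theirs were 0.941 to 0.956. Reads of the 6 targeted genes analysed, summed, came to 136 to 151 CPM in KO tongue and 350 to 388 CPM in WT tongue; the remaining targeted gene was not analysed here. In epidermis the sum was 109 to 251 CPM in KO and 237 to 310 CPM in WT, and KO 2 lay within the WT range. A gene whose product is lost by editing may still yield reads. The tissue labels were met by the sums of their markers. The 11 suprabasal and granular keratinocyte genes summed to between 32291 and 61290 CPM in epidermis and between 912 and 1322 CPM in tongue. In each genotype 10 of the 11 were higher in epidermis and 1 was lower, at -0.642 on the log2 scale in KO and -0.444 in WT. The 6 tongue epithelium genes summed to between 53.1 and 470 CPM in epidermis and between 6559 and 10302 CPM in tongue. The 10 skeletal muscle genes summed to between 89.6 and 711 CPM in epidermis and between 28794 and 51364 CPM in tongue. The share of a tissue's RNA that came from epithelium was not measured, and in bulk samples fewer cells of a type and less RNA per cell cannot be told apart.

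All 9 regulators were called higher in epidermis than in tongue, in KO and in WT animals alike. The contrast was widest for Gata3, at 8.08 on the log2 scale in KO and 7.91 in WT, and ran to 3.25 and 3.32 for Tfap2a and to 3.35 and 2.86 for Cebpa. The other 6 regulators stood between 1.71 and 2.12 in KO and between 1.16 and 1.92 in WT. Tissue differences were common: 63.8% of 16398 genes were called in KO, 32.7% as higher in epidermis, and 63.6% of 16577 genes in WT, 32.0% as higher. The median log2 difference was 1.97 over the regulators against 0.07 over all genes in KO, and 1.85 against 0.03 in WT. Levels are in CPM, a library's counts scaled to a common total with TMM factors over the 15 libraries, and tests are edgeR quasi-likelihood F tests with Benjamini-Hochberg adjustment over all genes tested, called at 0.05.

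**Figure D1:**
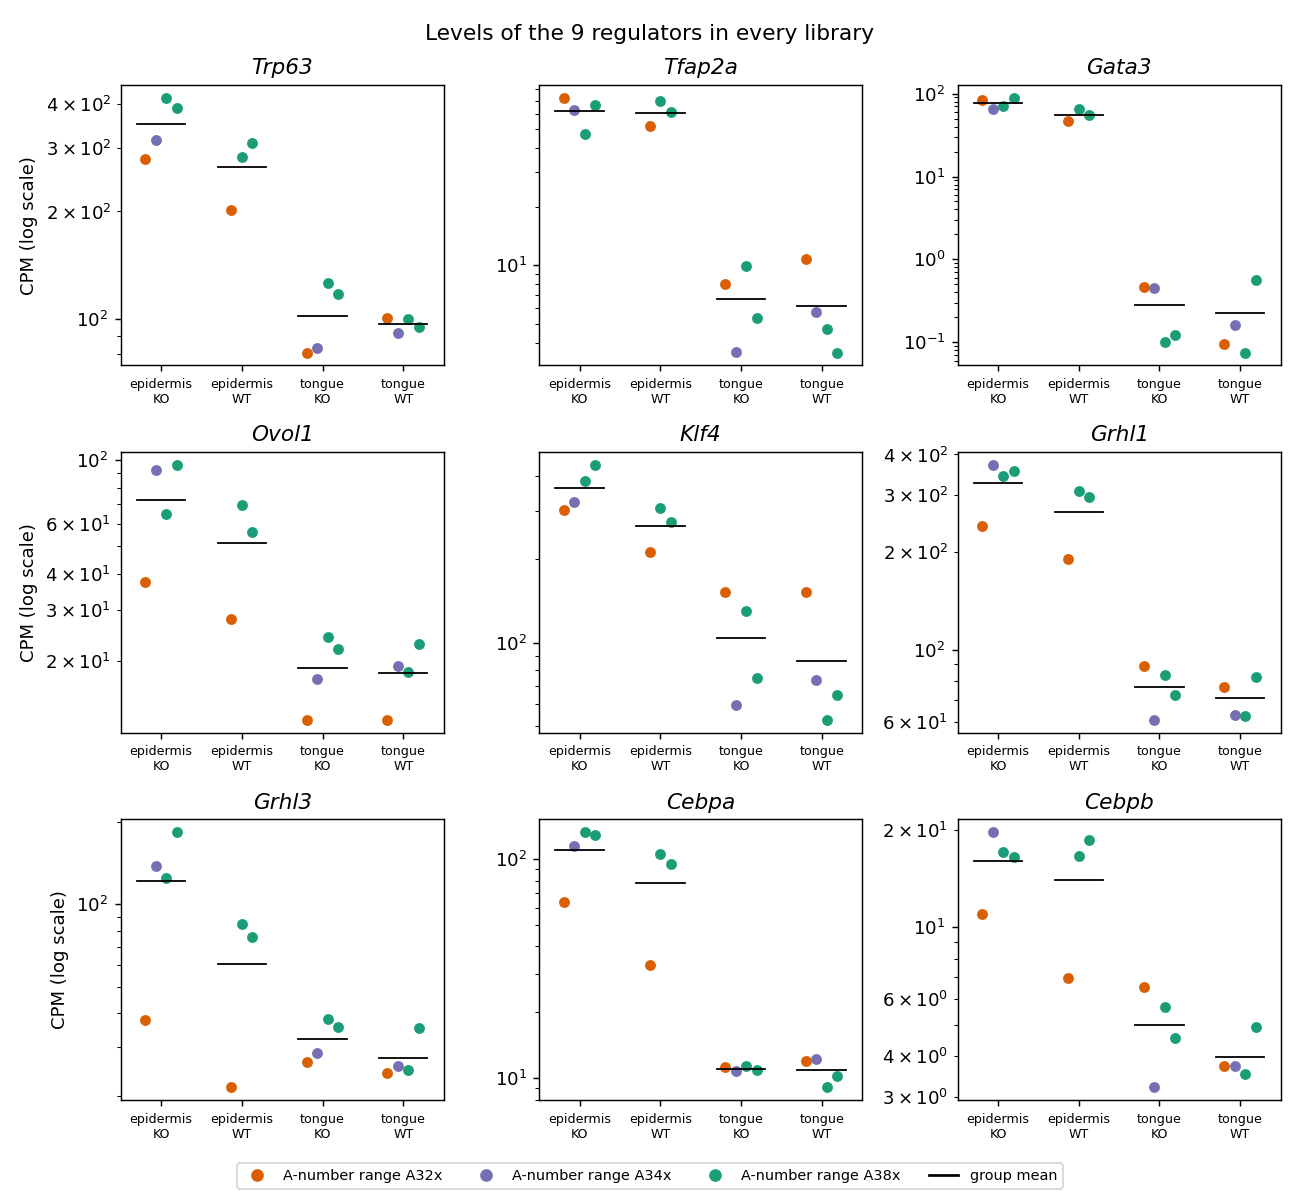
Levels of the 9 regulators in each of the 15 libraries (CPM, log axis), by tissue and genotype, with KO left of WT; points are libraries coloured by A-number range and the bar is the group mean. Gata3 sits between 47.0 and 89.4 CPM in epidermis and below 0.57 CPM in tongue.

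Among the regulators of the basal state, Trp63 (chromosome 16, 25683763 to 25892102, plus strand) had 281, 317, 416 and 389 CPM in KO epidermis, and 80.7, 82.99, 127 and 117 CPM in KO tongue. In WT animals it had 202, 285 and 310 CPM in epidermis, and 101, 91.6, 100.4 and 95.4 CPM in tongue. Every epidermis library lay above every tongue library. The log2 difference was 1.81 (SE 0.21, adjusted p = 1.25e-05) in KO and 1.47 (SE 0.17, adjusted p = 5.86e-05) in WT. Tfap2a (chromosome 13, 40715302 to 40738376, minus strand), the AP-2 family member named above, had 72.4, 62.5, 46.9 and 66.0 CPM in KO epidermis, and 7.99, 3.58, 9.86 and 5.35 CPM in KO tongue. WT values were 51.5, 69.7 and 60.8 CPM in epidermis, and 10.8, 5.74, 4.71 and 3.56 CPM in tongue. The tissues did not overlap, at log2 differences of 3.25 (SE 0.29, adjusted p = 1.49e-06) in KO and 3.32 (SE 0.33, adjusted p = 2.09e-05) in WT. The antisense genes Gm47061, Gm26688 and Gm47067 overlap 5.4%, 7.75% and 1.49% of the Tfap2a exon bases, and the libraries are not stated to keep strand.

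Gata3 (chromosome 2, 9857078 to 9890034, minus strand), a zinc finger factor needed in mice for barrier lipids and for the inner root sheath of the hair follicle, was nearly confined to the peeled epidermis in these libraries. It had 83.8, 65.0, 71.9 and 89.4 CPM in KO epidermis, against 6, 6, 1 and 2 reads in the KO tongue libraries. WT epidermis had 47.0, 65.9 and 54.8 CPM, against 1, 2, 1 and 7 reads in WT tongue. The pooled tongue reads, 15 in KO and 11 in WT, correspond to 0.284 CPM (exact 95% Poisson interval 0.159 to 0.469) and 0.226 CPM (0.113 to 0.405), intervals that cover counting error only. The log2 differences of 8.08 (SE 0.33, adjusted p = 7.61e-09) in KO and 7.91 (SE 0.37, adjusted p = 2.60e-07) in WT rest on these few tongue reads. Gata3 is also made by T and innate lymphoid cells. Their 7 markers summed to 23.9 to 31.2 CPM in KO epidermis and 20.1 to 29.5 CPM in WT epidermis. In tongue they summed to 14.4 to 19.9 CPM in KO and 16.7 to 18.4 CPM in WT. Every one of these markers had reads in all 7 epidermis libraries. Each of Cd3e, Cd3d and Il7r was at 0 in at least 1 WT tongue library, and each of Cd3g and Cd3d in at least 1 KO tongue library. The 8 hair follicle genes summed to 46.9 to 610 CPM in KO epidermis and 41.9 to 194 CPM in WT epidermis, and to at most 12.8 CPM in tongue. The part of either cell type in the Gata3 level was not tested.

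Ovol1 (chromosome 19, 5549136 to 5560646, minus strand), a zinc finger repressor that helps keratinocyte progenitors leave the cell cycle, had 37.6, 92.5, 64.7 and 96.1 CPM in KO epidermis, and 12.4, 17.2, 24.1 and 21.9 CPM in KO tongue. WT levels were 28.0, 69.5 and 56.1 CPM in epidermis, and 12.5, 19.2, 18.3 and 22.8 CPM in tongue. The tissues did not overlap, but the A32x epidermis libraries, KO 1 and WT 1, stood closest to the highest tongue values. The log2 differences were 1.97 (SE 0.29, adjusted p = 1.13e-04) in KO and 1.51 (SE 0.29, adjusted p = 0.00158) in WT. The processed pseudogene Gm31166 overlaps 19.8% of the Ovol1 exon bases on the opposite strand.

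Klf4 (chromosome 4, 55527143 to 55532466, minus strand), a zinc finger factor without which newborn mice lack a working skin barrier, was the most abundant regulator per length. It had 303, 323, 382.8 and 438 CPM in KO epidermis, and 152, 59.6, 130 and 74.9 CPM in KO tongue. In WT it had 213, 308 and 272 CPM in epidermis, and 153, 73.3, 52.7 and 65.0 CPM in tongue. No tongue library reached the epidermis levels, and the spread within tongue was wide, with the A32x libraries highest in both genotypes. The log2 differences were 1.82 (SE 0.29, adjusted p = 1.72e-04) in KO and 1.64 (SE 0.34, adjusted p = 0.00231) in WT.

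Grhl1 (chromosome 12, 24572283 to 24617391, plus strand), which in mice drives desmosomal cadherin genes, had 240, 372, 342.3 and 355 CPM in KO epidermis, and 89.2, 60.7, 83.4 and 72.6 CPM in KO tongue. The WT libraries had 191, 309 and 296 CPM in epidermis, and 76.7, 62.8, 62.5 and 82.3 CPM in tongue. The groups were well apart, at log2 differences of 2.12 (SE 0.19, adjusted p = 1.65e-06) in KO and 1.92 (SE 0.20, adjusted p = 3.06e-05) in WT. Grhl3 (chromosome 4, 135541888 to 135573630, minus strand), required in mice for barrier formation and wound closure, had 37.9, 138, 125 and 183 CPM in KO epidermis, and 26.6, 28.7, 38.03 and 35.5 CPM in KO tongue. WT epidermis had 21.5, 84.5 and 75.8 CPM, and WT tongue 24.1, 25.7, 24.9 and 35.5 CPM. Grhl3 was the only regulator whose tissues overlapped: KO epidermis 1 lay under the highest KO tongue library, and WT epidermis 1 lay under all 4 WT tongue libraries. Without an overlap were thus 8 of the 9 in each genotype, where 28.6% of all genes in KO and 31.8% in WT were higher in epidermis without overlap. Its log2 difference was 1.94 (SE 0.38, adjusted p = 0.00110) in KO and 1.16 (SE 0.38, adjusted p = 0.0235) in WT. The WT call of Grhl3 was fragile, being kept in 9 of 17 alternatives. These included DESeq2, a block by A-number range, a block by animal and the A38x libraries alone. The adjusted p of Grhl3 was 0.0649 by limma-voom, at a log2 difference of 0.97, and 0.0628 with no filter on low counts. Leaving out WT epidermis 2 or 3 gave 0.83 (adjusted p = 0.113) and 0.96 (adjusted p = 0.0891), and leaving out WT tongue 1, 2 or 3 gave adjusted p-values of 0.067, 0.0658 and 0.0614. Leaving out WT epidermis 1, the library that stood apart, gave 1.55 (adjusted p = 3.4e-07).

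Cebpa (chromosome 7, 35119293 to 35121928, plus strand) and Cebpb (chromosome 2, 167688915 to 167690418, plus strand) encode related basic leucine zipper factors that act together in keratinocyte commitment in mice. Cebpa had 63.8, 115, 133 and 129 CPM in KO epidermis, and 11.2, 10.7, 11.4 and 10.9 CPM in KO tongue. In WT it had 33.0, 106 and 94.99 CPM in epidermis, and 12.0, 12.3, 9.11 and 10.3 CPM in tongue. Tongue levels of Cebpa were the steadiest of any regulator in KO, with a coefficient of variation of 2.56%, while in WT epidermis it was 50.4%. The log2 differences were 3.35 (SE 0.23, adjusted p = 1.95e-07) in KO and 2.86 (SE 0.35, adjusted p = 8.10e-05) in WT. Cebpb had 11.0, 19.7, 17.1 and 16.4 CPM in KO epidermis, and 6.53, 3.21, 5.68 and 4.55 CPM in KO tongue. WT libraries had 6.98, 16.6 and 18.5 CPM in epidermis, and 3.74, 3.72, 3.51 and 4.93 CPM in tongue. Both tissues were again apart, with log2 differences of 1.71 (SE 0.25, adjusted p = 9.91e-05) in KO and 1.85 (SE 0.31, adjusted p = 7.15e-04) in WT. Tmem189 overlaps 20.7% of the Cebpb exon bases on the opposite strand.

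The same direction held within animals. In each of the 6 animals that gave both tissues, all 9 regulators were higher in its epidermis. The log2 differences within an animal ran from 1.504 to 1.934 for Trp63, the narrowest range, and from 6.60 to 9.79 for Gata3, the widest. They ran from 2.51 to 3.57 for Cebpa, 2.25 to 4.12 for Tfap2a, 1.43 to 2.61 for Grhl1, 1.30 to 2.42 for Ovol1, 0.99 to 2.55 for Klf4, 0.75 to 2.62 for Cebpb and 0.51 to 2.37 for Grhl3. The lowest values of Klf4, Grhl1, Grhl3, Cebpa and Cebpb came from 1 animal, KO 1 of the A32x range.

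**Figure D2:**
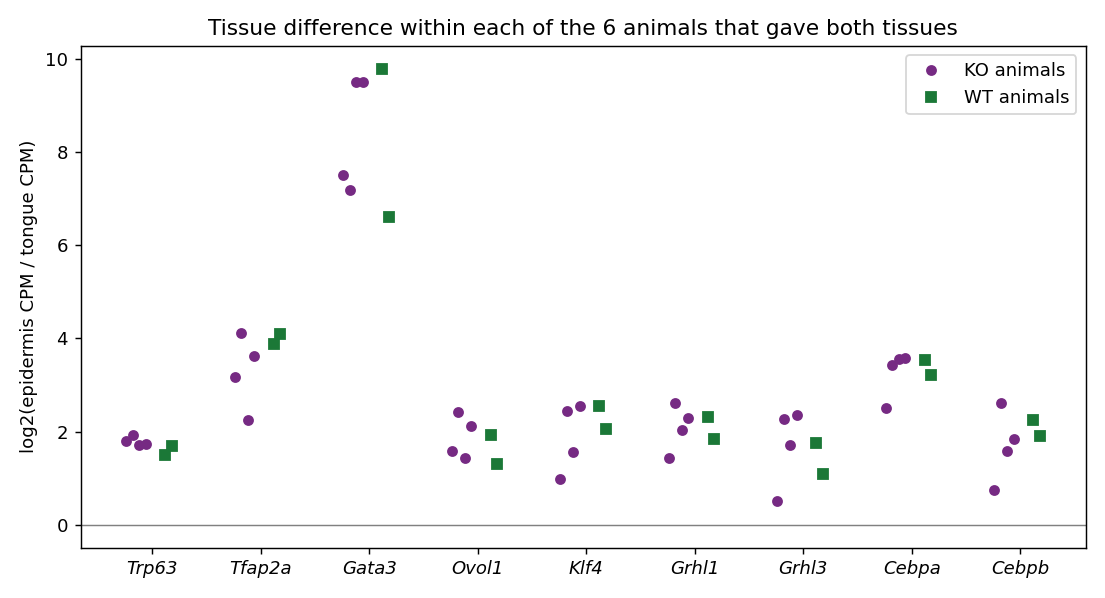
Difference between epidermis and tongue within each of the 6 animals that gave both tissues (log2 of the CPM ratio); circles are 4 KO animals and squares 2 WT animals, and the line marks no difference. All points lie above 0, with Gata3 between 6.60 and 9.79.

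Because the tongue was taken whole, the levels were also set against the summed CPM of 6 basal keratinocyte genes (Krt5, Krt14, Krt15, Itga6, Itgb4 and Col17a1), as a description with no test. That sum was 5128 to 6443 CPM in KO epidermis and 3667 to 6547 CPM in WT epidermis, and 1032 to 1243 CPM in KO tongue and 1171 to 1363 CPM in WT tongue. On this scale 3 regulators kept a higher mean in epidermis and 6 had a lower one. Gata3 was 5.87 higher on the log2 scale in KO and 6.02 in WT, without overlap between tissues. Tfap2a was 0.96 and 1.28 higher, also without overlap, and Cebpa 1.05 and 0.75 higher, with the WT tissues overlapping. Trp63 stood at -0.49 in KO and -0.55 in WT, Grhl3 at -0.36 and -0.97, Ovol1 at -0.34 and -0.56, Klf4 at -0.45 and -0.40, Cebpb at -0.59 and -0.23, and Grhl1 at -0.17 and -0.11. Of these, Trp63 and Grhl3 in WT had tongue values that were all above the epidermis values. The direction of the difference in means for these 6 genes therefore turned with the scale. On the second scale, however, the tissues overlapped for all 6 in KO, and for Ovol1, Klf4, Grhl1 and Cebpb in WT. In WT the 6 basal genes themselves ran from 0.207 to 3.018 in their log2 difference between tissues. Trp63, Krt5 and Krt14 belong to one program, so this denominator is not independent of the regulators.

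**Figure D3:**
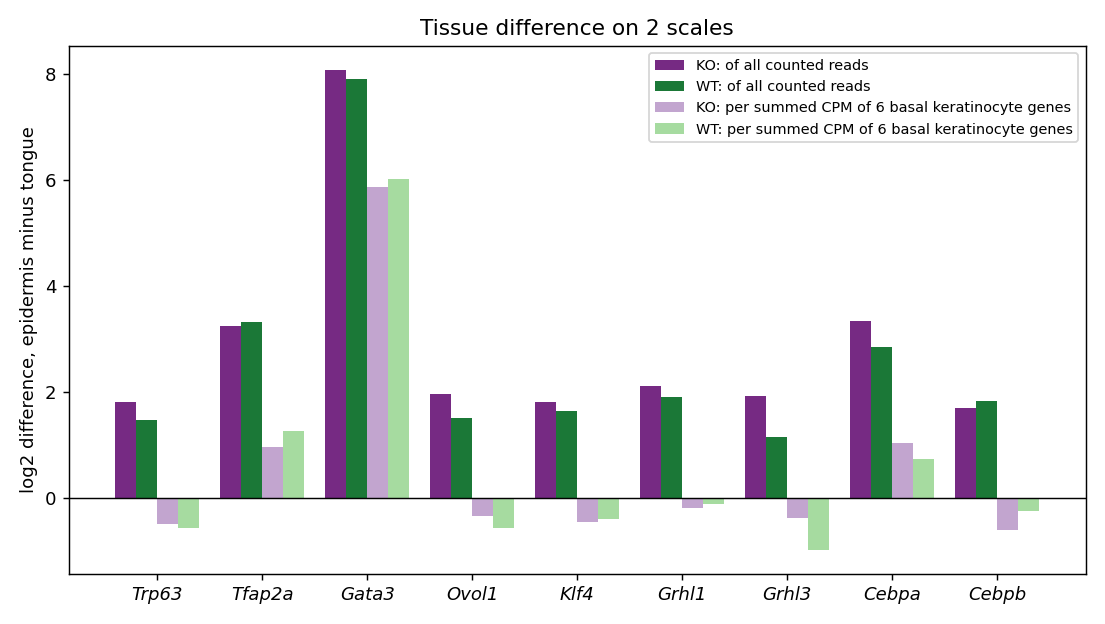
Tissue difference of each regulator (log2, epidermis minus tongue), with KO left of WT and no error bars. The first scale (dark bars) is edgeR fold changes of TMM-scaled counts, labelled in the figure as of all counted reads. The second (light bars) is ratios of group means per summed CPM of 6 basal keratinocyte genes. Gata3, Tfap2a and Cebpa stay above 0 on both scales, and the other 6 fall below 0 on the second.

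Levels of different genes were compared per kilobase of annotated exon. Klf4 led in all 4 groups, at 119 ± 20.2 CPM per kilobase in KO epidermis (SD, n = 4), 86.7 ± 15.8 in WT epidermis (n = 3), 34.2 ± 14.4 in KO tongue and 28.2 ± 14.9 in WT tongue (n = 4 each). Grhl1 came second in all 4 groups, at 59.1 ± 10.7, 47.9 ± 11.7, 13.8 ± 2.27 and 12.8 ± 1.81 CPM per kilobase in that order, and the ranges of Klf4 and Grhl1 did not overlap. In KO epidermis Grhl3 (43.4), Cebpa (41.9) and Trp63 (41.8) followed with overlapping ranges, then Ovol1 (20.8) and Gata3 (19.5), and then Tfap2a (12.6) and Cebpb (10.7). WT epidermis ended with the same 4 genes, and below Klf4 no neighbours in the order were apart. In both tongue groups the order was Trp63, Grhl3, Ovol1, Cebpa, Cebpb, Tfap2a and Gata3 after Grhl1. There Grhl3 stood apart from Ovol1, at 11.5 against 5.43 CPM per kilobase in KO tongue and 9.88 against 5.22 in WT tongue. Gata3 came last, at 0.0711 in KO tongue and 0.0564 in WT tongue. Exons of all annotated transcripts were merged, so a gene with exons unused in these tissues, as alternative starts give for Trp63, reads low on this scale.

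Other genes of the pathway were read from chosen lists. Of 28 further transcription factors of stratification, 20 were called higher and 3 lower in epidermis in each genotype, with median log2 differences of 2.00 in KO and 1.80 in WT. Pou2f3, a POU factor of the suprabasal layers, went 7.88 and 8.06 higher, at 111 ± 14.6 CPM in KO epidermis (SD, n = 4) and 0.467 ± 0.156 CPM in KO tongue (n = 4), and 99.7 ± 20.1 CPM in WT epidermis (n = 3) and 0.361 ± 0.214 CPM in WT tongue (n = 4). Pou3f1, its close relative, was 4.63 higher in KO and 5.11 in WT. Those called lower were Cebpd (-3.27 in KO and -3.35 in WT), Maf (-1.52 and -1.69) and Ehf (-0.87 and -0.76); the last 2 are named after their values were seen. Among 12 described targets of p63, 11 were called higher in each genotype, led by the cadherin gene Cdh3 at 3.77 in KO and 3.58 in WT, and in WT Chuk, also named after its value was seen, was called lower at -0.52. All 6 described targets of Grainyhead-like factors were called higher, with Cdh1, which encodes E-cadherin, at 2.76 in KO and 2.57 in WT, and Tgm1, which encodes the transglutaminase that crosslinks the cornified envelope, at 1.98 and 2.02. These lists were drawn up with earlier results known.

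Between genotypes no regulator was called in epidermis. All 9 had fold changes above 0 in the edgeR fit, but Tfap2a, at 0.00, turned negative by limma-voom, and Tfap2a and Cebpb turned negative among the A38x libraries alone. Of 16073 genes tested, 0.00% were called by edgeR and 50.2% had a fold change above 0; DESeq2 and limma-voom also called none, and 1.16% of genes (187) had an unadjusted p under 0.05 by edgeR. The median log2 fold change was 0.43 over the regulators and 0.00 over all genes; without WT epidermis 1, the library that stood apart, the regulators' median was 0.185. In the edgeR fit Gata3 was the 1 regulator with an unadjusted p under 0.05, at 77.5 ± 11.1 CPM in KO (SD, n = 4) and 55.9 ± 9.50 CPM in WT (n = 3), a log2 fold change of 0.45 (SE 0.20, adjusted p = 0.9998 by edgeR). Without WT epidermis 1 its fold change was 0.34 (SE 0.20) and its unadjusted p was above 0.05. DESeq2 put 2 of the 9 regulators under 0.05 before adjustment, and limma-voom 0. The edgeR fit with a block by A-number range put 5 of the 9 there, with 1563 of 16073 genes, and called no regulator.

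Grhl3 had the largest fold change of the regulators in epidermis and the least precise. It averaged 121 ± 60.8 CPM in KO (SD, n = 4) and 60.6 ± 34.1 CPM in WT (n = 3), a log2 fold change of 0.97 (95% interval -0.43 to 2.37; adjusted p = 0.9998). The groups overlapped through KO 1, which lay below 2 of 3 WT libraries. The other intervals were -0.16 to 0.92 around 0.38 for Trp63, -0.44 to 0.45 around 0.00 for Tfap2a, -0.37 to 1.32 around 0.48 for Ovol1, and -0.08 to 0.94 around 0.43 for Klf4. Grhl1 stood at 0.28 (-0.28 to 0.83), Cebpa at 0.48 (-0.42 to 1.37) and Cebpb at 0.16 (-0.59 to 0.91). The fold changes of all 9 regulators were lower without WT epidermis 1, with Grhl3 at 0.573, Gata3 at 0.339 and Tfap2a at -0.101. Trp63 then stood at 0.218, Klf4 at 0.298, Ovol1 at 0.185, Cebpa at 0.115, Grhl1 at 0.089 and Cebpb at -0.157. Over all 7 ways of leaving out 1 library, Ovol1 ran from 0.185 to 0.753, Cebpa from 0.115 to 0.756, Grhl1 from 0.089 to 0.396, Trp63 from 0.218 to 0.516 and Klf4 from 0.298 to 0.548. All of the intervals but that of Tfap2a reach above 1.5-fold, so they leave room for a rise of that size in KO epidermis. The intervals are not adjusted for the number of genes tested, and such a rise in Tfap2a could have gone uncalled as well. For none of the 9 were the genotypes without overlap, where 2.20% of all genes were.

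**Figure D4:**
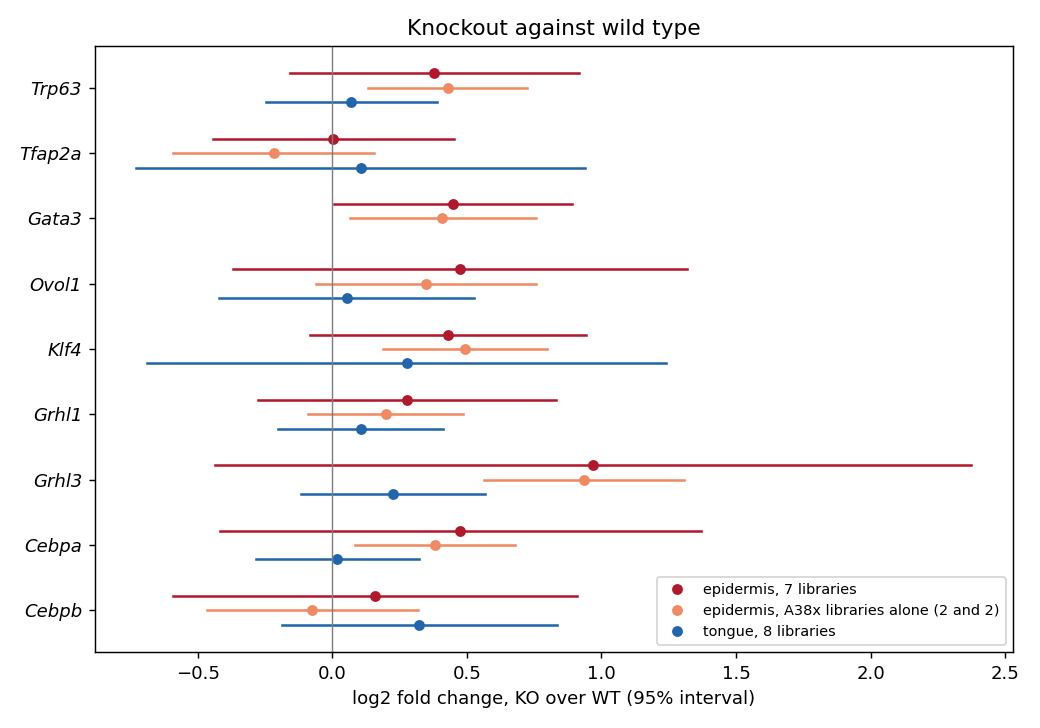
Log2 fold change of KO over WT for each regulator with its 95% interval, in epidermis (7 libraries), in the A38x epidermis libraries alone (2 KO and 2 WT) and in tongue (8 libraries); Gata3 was too low to test in tongue. Grhl3 among the A38x libraries stands at 0.94 with an interval of 0.56 to 1.31.

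Within the A38x range, which holds 2 epidermis libraries of each genotype, 3.83% of 15760 genes were called, 2.37% as higher in KO, and Grhl3 was the 1 regulator called. It had 125 and 183 CPM in KO, against 84.5 and 75.8 CPM in WT, a log2 fold change of 0.94 (SE 0.17, adjusted p = 0.00958). Both KO libraries lay above both WT libraries for 6 of the 9 regulators, Grhl3, Trp63, Gata3, Klf4, Grhl1 and Cebpa, as for 23.7% of all genes tested. Klf4 stood at 0.49 (adjusted p = 0.0704), Trp63 at 0.43 (0.108), Gata3 at 0.41 (0.203), Cebpa at 0.38 (0.162), Ovol1 at 0.35 (0.391), Grhl1 at 0.20 (0.515), Cebpb at -0.07 (0.899) and Tfap2a at -0.22 (0.594). In the A32x range, with 1 library of each genotype and no test, the log2 difference was 0.82 for Grhl3, 0.95 for Cebpa and 0.83 for Gata3, and between 0.33 and 0.66 for the other 6. The A34x range held KO epidermis only. Leaving out both A32x epidermis libraries, a choice made after the data were seen, gave Grhl3 a log2 fold change of 0.87 (SE 0.21, adjusted p = 0.964), and 1 gene and no regulator was called. Leaving out WT epidermis 1 alone gave Grhl3 0.57 (SE 0.56), not called. The edgeR fit of all epidermis libraries with a block by A-number range gave Grhl3 0.89 (SE 0.175, adjusted p = 0.268).

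Marker lists were read in the same epidermis libraries, and no gene on them was called between genotypes. The 15 immediate early genes, which respond within minutes to stimulation, summed to 451, 768, 832 and 1183 CPM in KO epidermis and to 411, 535 and 452 CPM in WT epidermis. All 15 had fold changes above 0, with a median of 0.67, and the sums overlapped through KO 1. The KO library with the highest sum, KO 4, was also the one with the most Grhl3. The 10 skeletal muscle genes summed to 205, 711, 193 and 89.6 CPM in KO epidermis and to 165, 97.7 and 254 CPM in WT epidermis, and the 8 tested had a median of 1.25; Myod1 was at 0 in some libraries of both genotypes. The 7 fibroblast genes summed to 233 to 430 CPM in KO epidermis and 132 to 386.3 CPM in WT epidermis, with Twist2 at 0 in a WT library; 6 were tested, with a median of 0.44. The sums of both lists overlapped between genotypes. Fold changes were above 0 for 6 of 6 tongue epithelium genes (median 0.655), 7 of 8 hair follicle genes (0.80), 5 of 5 adipocyte genes tested (0.78), 3 of 4 mast cell genes tested (1.04), 5 of 6 melanocyte genes (0.54) and 4 of 4 endothelial genes tested (0.38). They were above 0 for 2 of 4 Schwann cell genes tested (median 0.14), 2 of 5 macrophage and Langerhans cell genes tested (-0.12) and 2 of 7 T and innate lymphoid cell genes (-0.196). Keratinocyte genes themselves were above 0 for 5 of 6 of the basal list (median 0.18) and 8 of 11 of the suprabasal and granular list (0.197). The sums of all these lists overlapped between genotypes. Tongue epithelium genes summed to 165, 470, 90.3 and 53.1 CPM in KO and to 133, 128 and 114 CPM in WT. Hair follicle genes reached 610 CPM in KO 1 but 46.9 CPM in KO 4. Endothelial genes summed to only 2.19 to 8.71 CPM in KO and 2.10 to 4.31 CPM in WT. Mast cell sums were 16.5 to 30.2 CPM and 18.8 to 21.9 CPM. Emcn, Cldn5, Cma1, Mcpt4 and Cidec were each at 0 in at least 1 library. The part of these cell types and genes in the regulators' values was not tested. Among the lists, 24 of 28 further transcription factors had fold changes above 0 in epidermis, with a median of 0.24, against 9 of 12 targets of p63 (median 0.21) and 5 of 6 targets of Grainyhead-like factors (median 0.10), and none was called. By level, the leading list genes were Rxra at 0.26 (SE 0.24) and Zfp750 at 0.34 (SE 0.23), Perp at 0.35 (SE 0.46) and Krt5 at 0.06 (SE 0.27), and Cdh1 at 0.29 (SE 0.32) and Dsg1a at 0.13 (SE 0.35), the last of which can share reads with its near-identical neighbours.

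In tongue, 8 of the 9 regulators had enough reads to test and none was called. Of 15741 genes, 2 (0.0127%) were called, both lower in KO and both among the targeted genes. An unadjusted p under 0.05 by edgeR was seen for 3.15% (496). DESeq2 called 4 genes and limma-voom 2, and neither called a regulator. All 8 had fold changes above 0, as had 51.8% of all genes, though Trp63, Tfap2a, Ovol1 and Cebpa turned negative when single libraries were left out. The fold changes ran from 0.02 for Cebpa (95% interval -0.29 to 0.32) to 0.32 for Cebpb (-0.19 to 0.83), with a median of 0.11 against 0.01 over all genes. Single libraries moved that median, to 0.034 without KO tongue 3, 0.24 without KO tongue 2, 0.168 without WT tongue 4 and 0.16 without WT tongue 1, and it was 0.28 within the A38x range. Grhl3 averaged 32.2 ± 5.45 CPM in KO tongue and 27.6 ± 5.32 CPM in WT tongue (SD, n = 4 each), a log2 fold change of 0.22 (-0.12 to 0.57). Klf4, with the widest interval of the 8, stood at 0.28 (-0.69 to 1.24), and at -0.01 between the single A32x libraries and 0.80 within the A38x range. No regulator was without overlap between genotypes, where 2.29% of genes were.

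The difference of the KO effect between epidermis and tongue was called for none of the 9, nor for any of 17935 genes (0.00%) by edgeR; 1.67% (299) had an unadjusted p under 0.05 and DESeq2 called 1 gene, not a regulator. The regulators' values ran from -0.14 for Cebpb (95% interval -1.04 to 0.75) to 0.77 for Grhl3 (-0.56 to 2.09), and 7 of 9 were above 0, against 51.0% of genes. The Grhl3 effect in epidermis is thus not shown to differ from that in tongue. The Grhl3 value was 0.67 (SE 0.26) without the A32x epidermis libraries, 0.37 (SE 0.53) without WT epidermis 1 and 0.31 (SE 0.469) with the animal as a block, and was called in none of these. The regulators' median was 0.197, against 0.042 without WT epidermis 1 and 0.017 with the animal as a block.

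For Grhl3, Ovol1 and Cebpa, epidermis libraries of one genotype differed by more than the genotype means. KO 1 and WT 1, the A32x libraries, had 24.6% and 26.8% of the mean Grhl3 level of the A38x libraries of their genotype. Ovol1 stood at 46.8% in KO 1 and 44.6% in WT 1, and Cebpa at 48.6% and 32.8%. Those 3 genes were below 50% in both libraries, as were 1.23% of 8306 genes with a mean of at least 10 CPM. Cebpb stood at 65.8% and 39.7%, Grhl1 at 68.8% and 63.1%, Trp63 at 69.8% and 67.8%, and Klf4 at 73.7% and 73.3%. In total 7 of the 9 were lower in both A32x libraries, as were 41% of all those genes. Marker lists shifted in the same libraries, given as medians of log2 differences from the A38x mean. Immediate early genes stood at -1.09 in KO 1 and -0.798 in WT 1, suprabasal and granular keratinocyte genes at -0.44 and -0.83, and basal keratinocyte genes at -0.21 and -0.62. Targets of Grainyhead-like factors stood at -0.39 in KO 1, with 5 of 6 lower, and at -1.06 in WT 1, with 6 of 6 lower. Tongue epithelium genes were higher, at 0.95 in KO 1 and 0.87 in WT 1. Several lists went opposite ways in the 2 libraries: hair follicle genes stood at 2.25 in KO 1 and -2.18 in WT 1, fibroblast genes at 0.81 and -1.14, mast cell genes at 0.61 and -1.08, melanocyte genes at 0.54 and -0.66, and skeletal muscle genes at 0.397 and -0.53. The part of these in the regulators' shift was not tested. Gata3, at 104% and 77.9%, and Tfap2a, at 128% and 79.0%, differed in direction between KO 1 and WT 1. In tongue the A32x pattern was another one: Klf4 was at 148% in KO 1 and 259.6% in WT 1 of the A38x mean, whereas Ovol1 was at 54.1% and 60.6%. WT epidermis 1 is the library with the high share of mitochondrial ribosomal RNA, but KO epidermis 1, at 22.8%, was in the range of the rest. What sets the A32x libraries apart cannot be told from the labels.

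**Figure D5:**
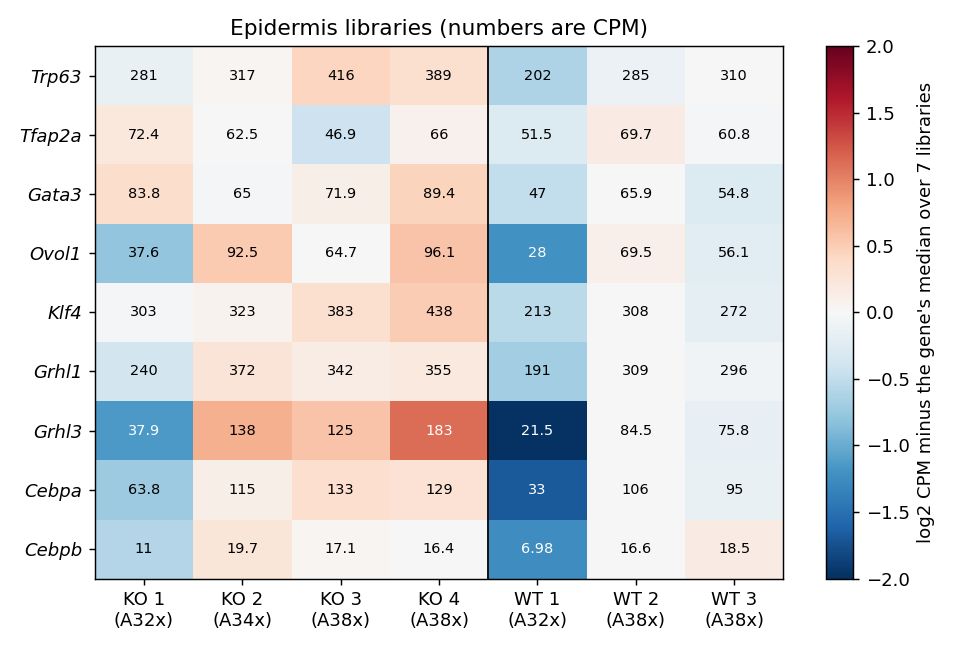
Levels of the 9 regulators in the 7 epidermis libraries, with KO left of WT; numbers are CPM and colours show log2 CPM minus the gene's median over the 7 libraries, with the A-number range under each library. Grhl3 runs from 21.5 CPM in WT 1 to 183 CPM in KO 4, and both A32x columns are low for most regulators.

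Likeness of pattern was measured over the 15 libraries as the root mean square difference of centred log2(CPM + 0.5), with 10779 candidate genes of at least 5 CPM, as a description. The closest match of all was between Grhl1 and Alox12b, the lipoxygenase gene of barrier lipid processing, at 0.116, followed by Lad1 at 0.139. Trp63 was closest to Ets2 (0.17) and Peli2 (0.178), Klf4 to Atp6v0a4 (0.171) and the desmosome gene Dsp (0.198), and Cebpb to Wnt7b (0.174) and Spint1 (0.233). Ovol1 was closest to Zbtb7b (0.205) and Tmem54 (0.233), and Cebpa to Tmem45a and Ly6g6c (0.23 each). Tfap2a was closest to Tiam1 (0.296) and Celsr2 (0.297), and Grhl3 to Fgfbp1 (0.336) and Perp (0.357). Gata3 had the most distant neighbours, the melanocyte gene Dct (0.404) and the keratinocyte factor Pou2f3 (0.444). Among themselves the closest pair was Grhl1 and Cebpb (0.261), then Trp63 and Grhl1 (0.288). The 15 libraries share their tissue contrast, which sets much of this measure.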

How the data were processed

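RNA-seq was made with the SMARTer V4 low-input and TruSeq v2 kits, read on a NextSeq500, per the labels' protocols; strand is not stated to be kept. Alignment used STAR 2.5.2a and builds GRCm38.p3 and mm10, and DESeq2, edgeR and limma are named, per the submitters' processing notes; no label or file header used here names the read counter or the gene annotation. The authors deposited counts, whole reads per gene, which were tested. A second deposited table holds signal values, each being the count divided by 1 constant of its library (within 0.0842% for the 9 genes), used only for symbols and this check. Of 23422 entries, 2 transgene sequences (beta-lac, LacZ) were left out.

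Genes were filtered within a comparison (filterByExpr, minimum count 10), TMM-scaled and tested two-sided with the robust quasi-likelihood F test of edgeR 4.0.16 in R 4.3.3, with Benjamini-Hochberg adjustment over all genes tested and a threshold of 0.05. Printed CPM use TMM factors over the 15 libraries, so their ratios differ slightly from fitted fold changes. SE is the log2 fold change over the square root of F; intervals are at 95%. DESeq2 1.42.0 and limma 3.58.1 (voom), other scalings and filters, blocks and leaving out libraries were alternatives. The pipeline was tested on simulated data. Exons and coordinates are from GENCODE on GRCm38, promoters from RefSeq on GRCm38.p6.

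The 9 genes, the lists and the tests were chosen with earlier results of these data known. All 9 genes are named. From each list described, up to 3 genes past the threshold with the largest fold change are named or else, if no gene passed, the 2 most abundant, and for likeness the 2 closest genes; not every such gene is printed. For KO epidermis against KO tongue, same-numbered libraries came from 1 animal by their A-numbers. Correlations of their deviations were 0.072, 0.256, -0.197 and 0.19, and a fit with the animal as a block called all 9 regulators as well.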

Additional observations from a re-analysis of the deposited data

Results flagged for a closer look

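In WT tongue, library 4 had a Grhl3 level of 35.5 CPM, far from the other 3 libraries at 24.1, 24.9 and 25.7 CPM, and a Cebpb level of 4.93 CPM, where the others had 3.51, 3.72 and 3.74 CPM. Each gap was wide for its group of 4 by Dixon's criterion. Of 27 groups of 4 examined this way, chance alone would single out about 1 in 20. Without this library the log2 difference of Grhl3 between WT epidermis and WT tongue was 1.29 (adjusted p = 0.0309).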

How the results depend on the processing

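All 9 regulators stayed called as higher in KO epidermis than in KO tongue under every alternative tried, and 8 of 9 did so in WT, Grhl3 being the exception. For Grhl3 in WT the replicate block gave a log2 difference of 1.11 (adjusted p = 0.0578); replicate numbers there are not animals, the correlations of deviations were 0.078, 0.125 and 0.18, and all 6 of the paired samples correlated best with their own number. A replicate block left the members called at 0 for KO against WT in epidermis, tongue and their difference; in epidermis 4 of 6 and in tongue 3 of 8 samples correlated best with their own number. It changed no other call.

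For KO against WT in epidermis, 1 regulator was called among the A38x libraries alone. Genes called there numbered 604, and 1 each with a block by A-number range, with all 15 libraries in one fit and without the A32x epidermis libraries. In tongue DESeq2 called 4 genes and the A38x libraries 15. For the difference between tissues DESeq2 called 1 gene, the A38x libraries 19 and the fit without the A32x epidermis libraries 1, and leaving out each library gave 0 to 1.

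Fold changes that turned sign were all uncalled, and the cause was not tested. In epidermis Tfap2a stood at -0.006 by limma-voom, -0.045 with a replicate block, -0.22 in A38x and -0.18 without the A32x libraries, and Cebpb at -0.074 and -0.012 in the last 2 settings. For the difference between tissues a replicate block gave Tfap2a 0.11 and Gata3 -0.83, a block by animal gave Klf4 -0.42 and Cebpa -0.11, and A38x gave Klf4 -0.32. Leaving out each library in turn, epidermis gave -0.10 to 0.11 for Tfap2a and -0.16 to 0.41 for Cebpb. Tongue gave -0.084 to 0.21 for Ovol1, -0.13 to 0.51 for Tfap2a, -0.057 to 0.085 for Cebpa and -0.051 to 0.17 for Trp63. The difference gave -0.48 to 0.16 for Tfap2a, -0.45 to 0.11 for Cebpb, -0.26 to 0.42 for Klf4 and -0.83 to 0.47 for Gata3. Depth limits Gata3 in tongue, at 1 to 7 reads per library.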
